A study of Mus musculus with 14 samples.

Results

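The genes described here are 9 receptors through which blood-forming cells sense myeloid growth factors, of 54532 gene rows in the count table. They were chosen by symbol: Csf2ra, Il3ra, Csf2rb, Csf2rb2, Csf3r, Csf1r, Il6ra, Il6st and Epor. RNA was sequenced from bulk bone marrow cells of C57BL/6 mice sorted as GMP (granulocyte-monocyte progenitors) or as LT-HSC (long-term haematopoietic stem cells), in 14 libraries. The 4 groups were AML1-ETO GMP (3 libraries, genotype Runx1-Runx1t1), control GMP (4 libraries, genotype WT), AML1-ETO LT-HSC (3 libraries, Runx1-Runx1t1) and control LT-HSC (4 libraries, WT). Runx1-Runx1t1 is the mouse form of AML1-ETO, the fusion protein of the t(8;21) translocation in acute myeloid leukaemia. It was switched on by Mx1-Cre, a recombinase under an interferon-inducible promoter that is not restricted to blood cells, after poly(I:C) at 5 mg/kg in 4 intraperitoneal doses. The same doses are given in the labels of all 14 samples, and the labels do not say whether WT mice carried Mx1-Cre, nor the age of the mice. Nor do they state that each library is its own mouse. The p-values therefore reflect the variation among these libraries, part of which may be technical.

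Csf1r is a receptor tyrosine kinase, of a separate family from the others, which have no enzyme of their own. In these others, a chain specific to the cytokine binds it. That chain or a shared partner passes the signal through Janus kinases to STAT proteins. The STAT proteins switch on survival and growth genes and the SOCS proteins that damp the signal. In bone marrow, GM-CSF, G-CSF and M-CSF steer progenitors to granulocytes and macrophages, interleukin 3 acts on early progenitors and on mast cells and basophils, and erythropoietin acts on the red cell lineage. The ligand-binding chains for GM-CSF and interleukin 3 are Csf2ra and Il3ra. Csf2rb is their shared beta chain, also used by interleukin 5, and Csf2rb2 is a second beta chain, found in mice, that serves interleukin 3. Csf3r binds G-CSF, Csf1r binds M-CSF and interleukin 34, Il6ra binds interleukin 6 and passes its signal through Il6st (gp130), and Epor binds erythropoietin.

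Promoter sequences, taken from RefSeq (GRCm38.p6), were matched for 7 of the 9 genes and are shown for the 4 of these called as changed between AML1-ETO and control LT-HSC, as the stretches beside the start sites where blood cell factors commonly bind. Each runs 5′ to 3′ along the gene, from 250 bases before the annotated start to 50 after it. Capitals mark matches, on either strand, to short motifs of blood cell factors. The letters searched for RUNX proteins were TGTGGT and, as a variant, TGCGGT. For PU.1 proteins they were GAGGAA, for C/EBP proteins TTGCNNAA, and for the GATA family of proteins AGATAA and, as a variant, TGATAA.
Csf2rb2 promoter, chr15:78305672-78305971, minus strand: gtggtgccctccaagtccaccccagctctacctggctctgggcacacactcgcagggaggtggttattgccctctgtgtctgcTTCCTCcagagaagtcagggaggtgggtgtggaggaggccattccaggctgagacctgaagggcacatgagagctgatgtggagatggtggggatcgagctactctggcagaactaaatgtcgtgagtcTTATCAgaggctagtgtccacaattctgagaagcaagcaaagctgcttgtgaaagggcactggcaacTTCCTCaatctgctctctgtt
Csf3r promoter, chr4:126024409-126024708, plus strand: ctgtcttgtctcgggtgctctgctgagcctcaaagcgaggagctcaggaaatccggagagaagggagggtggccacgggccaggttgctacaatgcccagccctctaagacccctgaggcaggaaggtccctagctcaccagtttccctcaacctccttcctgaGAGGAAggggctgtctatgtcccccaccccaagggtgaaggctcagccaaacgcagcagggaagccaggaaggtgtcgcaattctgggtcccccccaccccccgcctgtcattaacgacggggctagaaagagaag
Il3ra promoter, chr14:14346245-14346544, plus strand: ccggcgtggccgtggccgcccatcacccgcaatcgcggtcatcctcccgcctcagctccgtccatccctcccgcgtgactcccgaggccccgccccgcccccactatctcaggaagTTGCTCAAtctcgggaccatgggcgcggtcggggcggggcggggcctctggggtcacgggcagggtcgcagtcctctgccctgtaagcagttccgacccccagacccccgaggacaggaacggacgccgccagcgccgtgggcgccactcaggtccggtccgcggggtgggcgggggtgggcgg
Epor promoter, chr9:21963527-21963826, minus strand: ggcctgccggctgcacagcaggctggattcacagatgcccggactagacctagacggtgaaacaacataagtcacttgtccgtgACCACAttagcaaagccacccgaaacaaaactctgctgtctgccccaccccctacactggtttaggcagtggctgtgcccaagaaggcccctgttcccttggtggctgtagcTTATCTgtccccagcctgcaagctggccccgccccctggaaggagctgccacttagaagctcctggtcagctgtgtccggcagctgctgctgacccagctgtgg
Of these 4 promoters, that of Epor held a RUNX match, at position -166 from the start, and a GATA match at -54. The promoter of Csf2rb2 held PU.1 matches at -167 and 30 and a GATA match at -38, that of Csf3r a PU.1 match at -86, and that of Il3ra a C/EBP match at -134. The same motifs occur in 22.4% (RUNX), 28.3% (PU.1), 18.6% (GATA) and 10.8% (C/EBP) of 32851 promoters of the same length. These letters are a description of the windows and were not tested as binding sites. Csf2rb2 and Csf2rb are neighbours on chromosome 15 of mm10 (78282507 to 78305721 on the minus strand and 78325752 to 78353847 on the plus strand), 20030 bases apart. They share 12.3% of the 50-base windows of the Csf2rb exons and 18.4% of those of Csf2rb2, so reads from either gene may be lost or credited to the other, and they were also tested as a sum.

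The libraries held 13210952 to 19403864 counts. Runx1t1, part of the fusion, stood at 26.04 to 45.7 CPM (counts per 1000000 counts of the library after TMM scaling over the 14 samples) in AML1-ETO GMP and at 1.69 to 2.74 CPM in control GMP, and at 85.7 to 164 CPM in AML1-ETO LT-HSC and at 0 to 18.2 CPM in control LT-HSC, with no overlap in either cell type. Of 9 GMP markers, all were higher in control GMP than in control LT-HSC, and 11 of 13 LT-HSC markers were lower, Cd34 and Cd48 being higher. Between AML1-ETO and control LT-HSC, 4 of the GMP markers were called higher (Mpo, Ctsg, Cd34 and Fcgr3), Prtn3 was called lower, and Elane, a defining one, had no count in AML1-ETO LT-HSC. Of the LT-HSC markers, Kit, Cd34 and Cd48 were called higher there and Mllt3, Mecom and Ctnnal1 lower. Cd34 stood at 423 to 586 CPM in AML1-ETO LT-HSC, against 30.0 to 59.5 CPM in control LT-HSC, and Cd48, a marker that stem cells lack, at 181 to 256 CPM, against 0 to 12.5 CPM. Control LT-HSC replicate 3 missed more genes than any other library. The median level over the libraries reached 20 CPM for 7782 genes, of which 109 were under 0.2 CPM in that library and 2 to 29 in each of the others. AML1-ETO GMP replicate 1 was rich in globin (Hba-a1 at 2130 CPM). The summed CPM of 10 B and plasma cell markers was 113 to 643 in AML1-ETO LT-HSC, against 13100 to 77200 in control LT-HSC, and was not tested as a part of any result on the receptors. In bulk samples, a difference in the number of cells of a type and a difference in RNA per cell cannot be told apart.

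**Figure D1:**
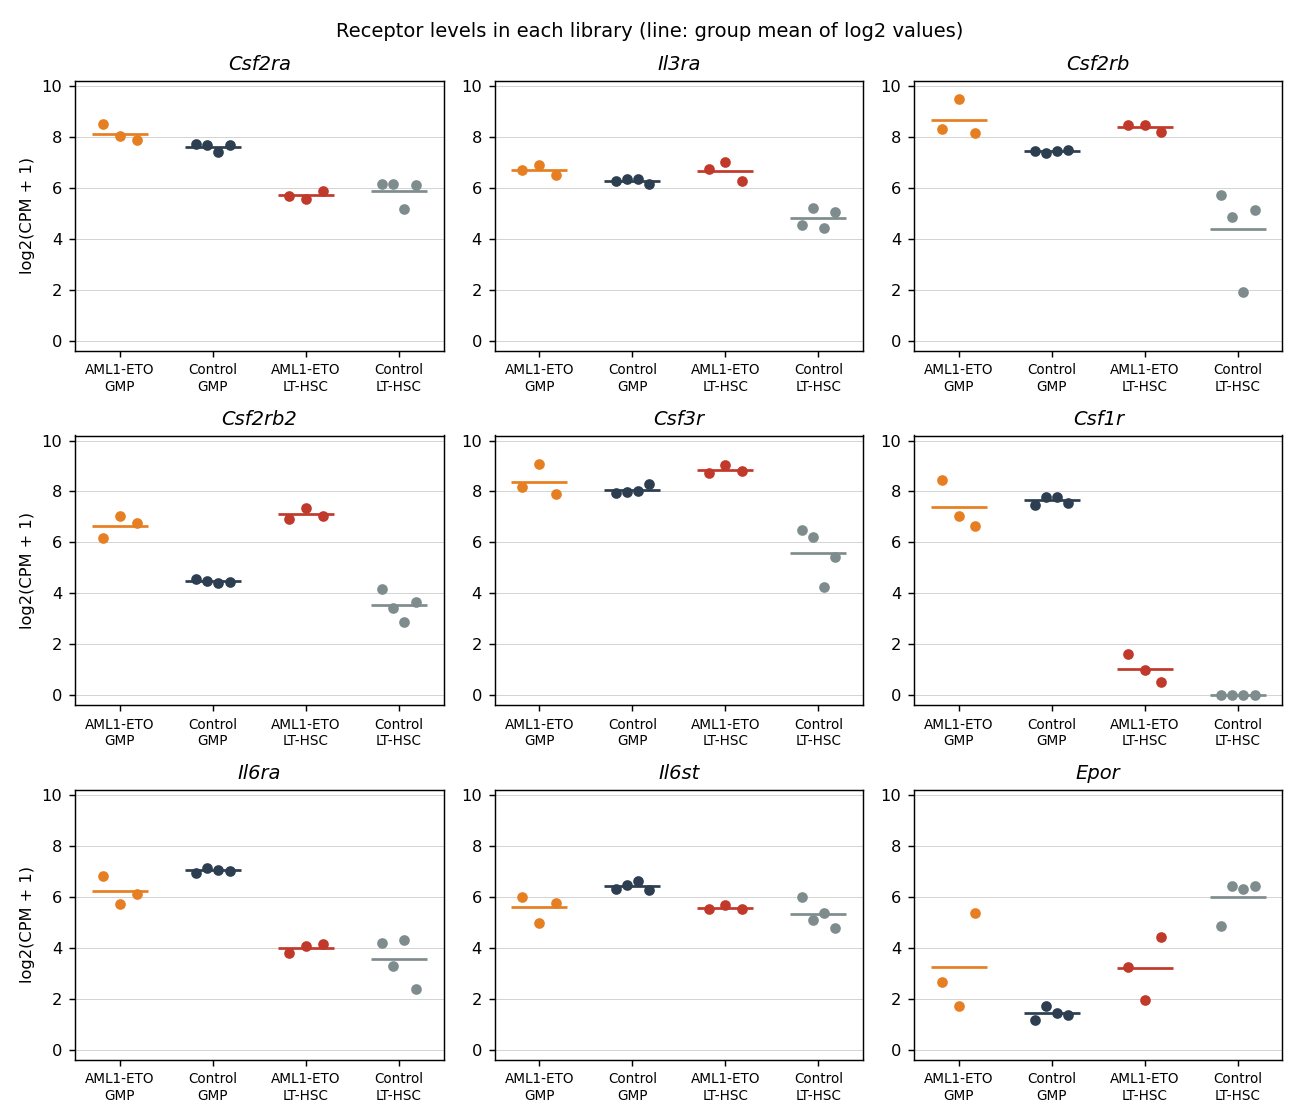
Level of each receptor gene in every library, as log2(CPM + 1), in AML1-ETO GMP, control GMP, AML1-ETO LT-HSC and control LT-HSC. Each point is 1 library (3 in the AML1-ETO groups, 4 in the control groups) and each line is the group mean of the log2 values. Csf2rb, Csf2rb2, Csf3r and Il3ra lie in AML1-ETO LT-HSC above every control LT-HSC library, Epor lies below, and Csf1r is at 0 in control LT-HSC.

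In control mice, 8 of the receptors were higher in GMP than in LT-HSC and Epor was lower. All 9 passed the test (edgeR quasi-likelihood F test, Benjamini-Hochberg adjusted p under 0.05, the threshold for a call throughout), against 24.5% of the 16116 genes tested, and in all 9 the groups did not overlap, as in 32.2% of genes. Of all called genes 56.9% were higher in control GMP, against 40.6 to 47.4% with other scalings or DESeq2. The steepest rise was that of Csf1r, the M-CSF receptor, at 178, 219, 220 and 187 CPM in control GMP, against no count in any of the 4 control LT-HSC libraries. Control GMP stood at least 4140-fold higher, computed against a floor of 3 counts over the 4 LT-HSC libraries (0.0486 CPM), which covers counting error only. Part of the exons of Csf1r lies over those of the antisense gene Hmgxb3, and the strand setting of the counting is not given in the sources used here.

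Il6ra, the interleukin 6 binding chain, stood at 122, 141, 132 and 128 CPM in control GMP, against 17.2, 8.73, 18.8 and 4.22 CPM in control LT-HSC. The log2 fold change was 3.42 ± 0.39 (SE; edgeR adjusted p = 4.29e-05). Its partner Il6st rose less, by 1.05 ± 0.27 (edgeR adjusted p = 0.0119), to 75.8 to 97.3 CPM in control GMP, against 26.3 to 63.6 CPM in control LT-HSC. The GM-CSF binding chain Csf2ra stood at 213, 204, 168 and 205 CPM in control GMP, against 70.4, 69.9, 34.8 and 68.5 CPM in control LT-HSC, a log2 fold change of 1.70 ± 0.22 (edgeR adjusted p = 9.23e-05). Every GMP library thus lay well above every LT-HSC library for both ligand-binding chains.

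The beta chains and the G-CSF receptor were higher in control GMP as well. On the log2 scale Csf2rb rose by 2.57 ± 0.56 (edgeR adjusted p = 0.00439), Csf3r by 2.25 ± 0.39 (adjusted p = 0.000944) and Il3ra by 1.47 ± 0.21 (adjusted p = 0.000238). Csf2rb2 moved least, by 0.91 ± 0.27 (edgeR adjusted p = 0.0227). Its call was lost without control GMP replicate 1 (adjusted p = 0.0594) or replicate 2 (adjusted p = 0.0502) without control LT-HSC replicate 2 (adjusted p = 0.0531), with DESeq2 size factors (adjusted p = 0.064) and in a fit of these 2 groups alone (adjusted p = 0.114). Epor ran the other way, at 1.23, 2.32, 1.69 and 1.57 CPM in control GMP, against 28.0, 84.2, 77.8 and 86.2 CPM in control LT-HSC, a log2 fold change of −5.33 ± 0.88 (edgeR adjusted p = 0.000691). Of 15 erythroid markers 11 were lower in control GMP, with sums of 242 to 287 CPM against 1150 to 3010 CPM in control LT-HSC, and their part in the result for Epor was not tested.

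In AML1-ETO mice, 3 of the 9 were called between AML1-ETO GMP and AML1-ETO LT-HSC, all higher in GMP (21.7% of 16116 genes were called, 12.6% higher and 9.15% lower), and these were the 3 whose groups did not overlap (41.8% of genes). They were Csf1r (log2 fold change 7.36 ± 0.63, edgeR adjusted p = 2.34e-05), Csf2ra (2.46 ± 0.26, adjusted p = 2.53e-05) and Il6ra (2.35 ± 0.43, adjusted p = 0.00157). For the other 6, log2 fold changes were −0.38 ± 0.43 for Csf3r, 0.40 ± 0.60 for Csf2rb, −0.42 ± 0.30 for Csf2rb2, 0.02 ± 0.24 for Il3ra, 0.08 ± 0.31 for Il6st and 0.59 ± 0.85 for Epor, and none passed the test. The signs for Il3ra and Il6st turned under other scalings of the libraries and without 1 library, that for Csf2rb turned without AML1-ETO GMP replicate 2 (−0.13) and that for Epor without AML1-ETO GMP replicate 3 (−1.48).

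**Figure D2:**
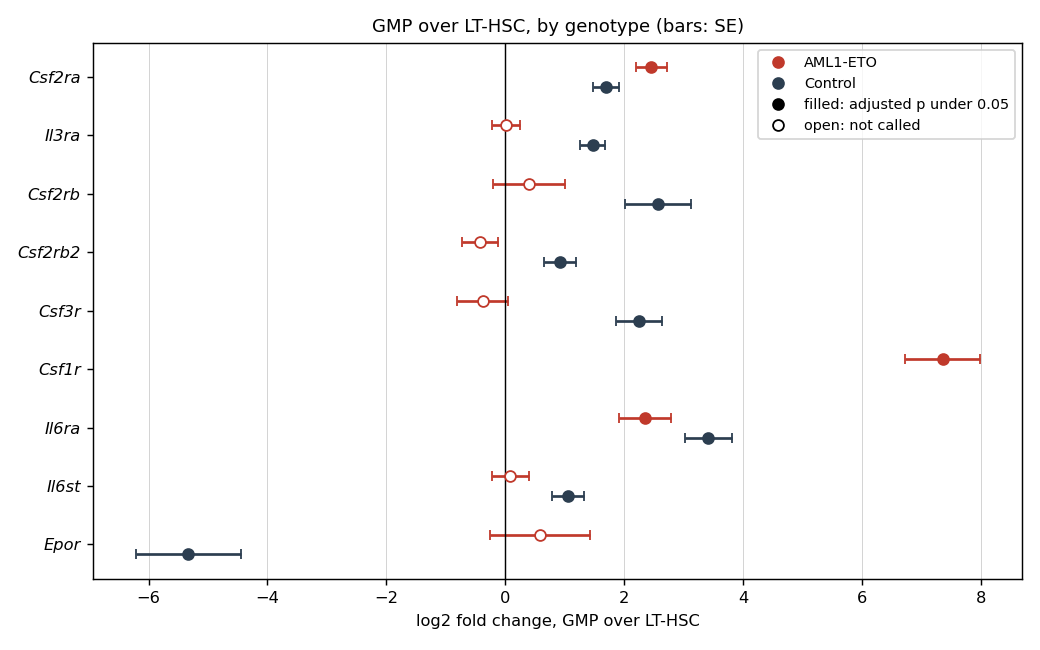
Log2 fold change of each receptor gene, GMP over LT-HSC, in AML1-ETO mice and in control mice, from 1 fit of the 14 libraries. Bars are SE, filled points passed the test and open points did not. In control mice all points shown are filled, with Epor at −5.33, and in AML1-ETO mice Csf1r, Csf2ra and Il6ra are filled. Csf1r in control mice is left out, since control LT-HSC had no count.

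Within LT-HSC, both beta chains, the G-CSF receptor and the interleukin 3 binding chain were higher in AML1-ETO mice, and Epor was lower. The test covered 8 receptors and called 4 of them higher and 1 lower, against 7.59% of 14589 genes called higher and 4.69% called lower. Of all called genes 61.8% were higher, against 51.7% with upper-quartile factors and 47.2% with DESeq2, and the same 4 and 1 receptors were called under both. The groups did not overlap for these 5, nor for Csf1r, which had too few counts to be tested (28.5% of genes did not overlap). The 9 receptors together took 0.106 to 0.126% of the counts in AML1-ETO LT-HSC, against 0.0242 to 0.0402% in control LT-HSC. This comparison shares its control LT-HSC libraries with that of the cell types in control mice.

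Csf2rb2 had 118, 163 and 131 CPM in AML1-ETO LT-HSC, against 17.2, 9.68, 6.29 and 11.6 CPM in control LT-HSC. The log2 fold change was 3.70 ± 0.35 (edgeR adjusted p = 0.00122), 13-fold, and the call was kept whichever library was left out. Csf2rb, the chain shared with the GM-CSF receptor, had 354, 354 and 293 CPM in AML1-ETO LT-HSC, against 51.6, 27.8, 2.75 and 33.7 CPM in control LT-HSC. Each AML1-ETO library lay far above each control library, and the lowest control value belongs to replicate 3, the library that missed most genes. For Csf2rb the log2 fold change was 3.61 ± 0.73 (edgeR adjusted p = 0.0173) with that library and 3.23 ± 0.29 (adjusted p = 0.00101) without it. The call was lost without AML1-ETO LT-HSC replicate 1, 2 or 3 (adjusted p = 0.0669, 0.0773 and 0.0541) and without control LT-HSC replicate 4 (adjusted p = 0.0519).

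Csf3r, the G-CSF receptor, had 422, 526 and 446 CPM in AML1-ETO LT-HSC, against 89.6, 73.8, 18.0 and 41.4 CPM in control LT-HSC, a log2 fold change of 3.15 ± 0.48 (edgeR adjusted p = 0.0063). Il3ra, the interleukin 3 binding chain, had 106, 130 and 75.5 CPM in AML1-ETO LT-HSC, against 22.6, 36.2, 20.4 and 32.1 CPM in control LT-HSC, a log2 fold change of 2.00 ± 0.29 (edgeR adjusted p = 0.00485). Both calls were kept whichever library was left out. Of 12 tested mast cell and basophil markers, cells known to carry the interleukin 3 receptor, 11 were higher in AML1-ETO LT-HSC. The 14 listed markers summed to 10400 to 13300 CPM, against 963 to 1380 CPM in control LT-HSC, where Fcer1a, Mcpt4, Tpsab1 and Prss34 had no count. The 9 GMP markers, of which 4 were called higher and 1 lower, summed to 1190 to 1450 CPM in AML1-ETO LT-HSC and to 94.3 to 378 CPM in control LT-HSC, and neutrophil markers to 2.76 to 46.2 CPM and 51.8 to 170 CPM. The 13 LT-HSC markers, with 3 called higher and 3 lower, summed to 2360 to 2610 CPM in AML1-ETO LT-HSC and to 940 to 2220 CPM in control LT-HSC. Most of the AML1-ETO LT-HSC sum came from the 3 called higher, of which Kit is also a listed mast cell marker and Cd48 one that stem cells lack. These were Kit (819 to 1020 CPM, against 454 to 712 CPM in control LT-HSC), Cd34 (423 to 586 CPM, against 30.0 to 59.5 CPM) and Cd48 (181 to 256 CPM, against 0 to 12.5 CPM). The part of these marker genes' cell types in the rise of Csf2rb, Csf2rb2, Csf3r and Il3ra was not tested.

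The GM-CSF binding chain and both chains of the interleukin 6 receptor were not called in LT-HSC. Csf2ra had 51.0, 46.7 and 58.2 CPM in AML1-ETO LT-HSC, against 70.4, 69.9, 34.8 and 68.5 CPM in control LT-HSC, and the log2 fold change, −0.14 ± 0.28, missed the threshold (edgeR adjusted p = 0.854). For Il6ra the log2 fold change was 0.40 ± 0.59 (adjusted p = 0.767) and for Il6st 0.28 ± 0.33 (adjusted p = 0.696). Values of these 3 genes overlapped between the genotypes, and none was called when any 1 library was left out. Csf1r had 2.03, 0.998 and 0.428 CPM in AML1-ETO LT-HSC, 54 counts in all, against no count in control LT-HSC. It was at least 23.7-fold higher against the floor of 3 counts over the group, at a level far below the 178 to 220 CPM of control GMP.

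Epor, the erythropoietin receptor, had 8.54, 2.84 and 20.4 CPM in AML1-ETO LT-HSC, against 28.0, 84.2, 77.8 and 86.2 CPM in control LT-HSC. It fell by 2.60 ± 0.66 on the log2 scale (edgeR adjusted p = 0.0401). The call was lost without AML1-ETO LT-HSC replicate 1 (adjusted p = 0.149) or 2 (adjusted p = 0.115) and without control LT-HSC replicate 2 (adjusted p = 0.0777) or 4 (adjusted p = 0.0819), and also with the replicate number as a block (adjusted p = 0.109). Erythroid markers summed to 514 to 601 CPM in AML1-ETO LT-HSC and to 1150 to 3010 CPM in control LT-HSC, with 6 of 15 lower and none higher. The control library lowest in Epor, replicate 1, was also the lowest in that sum. Klf1, an erythroid transcription factor, fell by 4.03 ± 0.49 on the log2 scale (edgeR adjusted p = 0.00273), and the part of erythroid transcripts in the result for Epor was not tested.

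**Figure D3:**
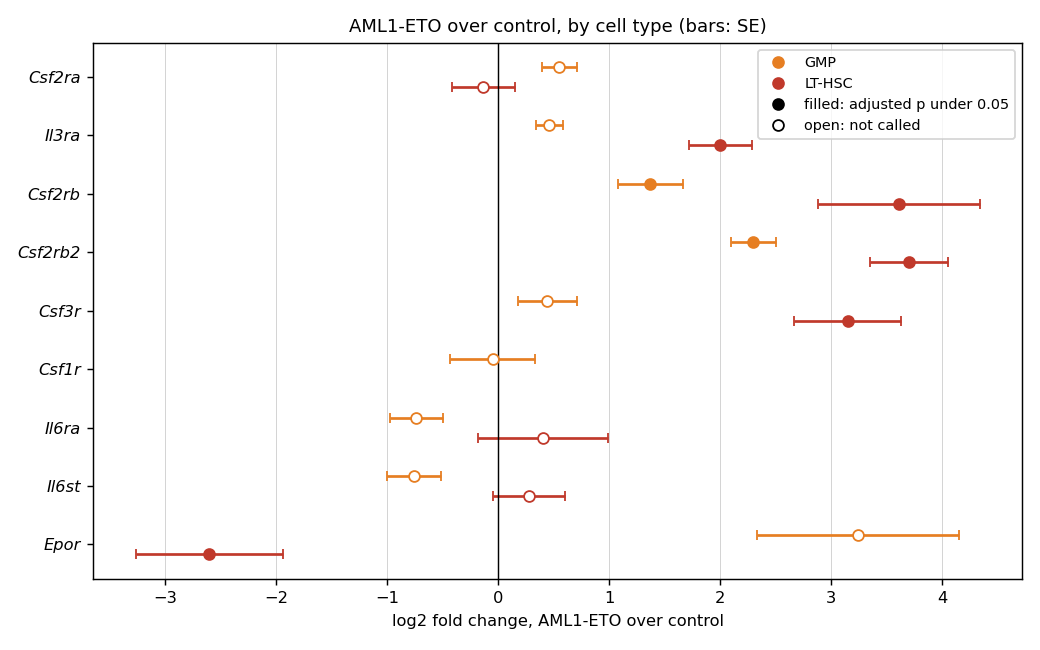
Log2 fold change of each receptor gene, AML1-ETO over control, in GMP and in LT-HSC, each from a fit of the 7 libraries of that cell type. Bars are SE, filled points passed the test and open points did not. In LT-HSC 5 points are filled, with Csf2rb2 at 3.70 and Epor at −2.60, and in GMP Csf2rb and Csf2rb2 are filled. Csf1r in LT-HSC had too few counts to be tested.

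Within GMP, only the beta chains passed the test: 2 of 9 receptors were higher in AML1-ETO GMP and none lower, against 9.43% of 13981 genes called, 5.47% higher and 3.96% lower. Csf2rb2 had 70.6, 130 and 107 CPM in AML1-ETO GMP, against 22.4, 21.4, 20.1 and 20.5 CPM in control GMP, a log2 fold change of 2.30 ± 0.20 (edgeR adjusted p = 0.00231) that was called whichever library was left out. Csf2rb had 319, 716 and 285 CPM in AML1-ETO GMP, against 172, 165, 174 and 180 CPM in control GMP. Its log2 fold change was 1.37 ± 0.29 (edgeR adjusted p = 0.0286), or 0.82 ± 0.08 (adjusted p = 0.00452) without AML1-ETO GMP replicate 2, the library at 716 CPM. Leaving out control GMP replicate 1, 2, 3 or 4 ended the call of Csf2rb (adjusted p = 0.0973, 0.0899, 0.0987 and 0.094), as did the replicate block (adjusted p = 0.146) and the fit of all 14 libraries (adjusted p = 0.228). Of 12 tested mast cell and basophil markers, 9 were higher in AML1-ETO GMP and 1, Kit, was lower, and the 14 listed summed to 2990 to 4330 CPM, against 971 to 1150 CPM in control GMP. Of 6 tested eosinophil markers, cells that the interleukin 5 receptor serves, 4 were higher and none lower, and the 7 listed summed to 8070, 10500 and 3270 CPM in AML1-ETO GMP, against 1030 to 2530 CPM in control GMP. Replicate 2, the highest in Csf2rb, was also the highest in the eosinophil sum and in the sum of the 9 GMP markers. The GMP marker sum was 35400 CPM there, against 24100 and 21600 CPM in the other AML1-ETO GMP libraries and 28800 to 33000 CPM in control GMP. The mast cell and basophil sum was instead highest in replicate 3 (4330 CPM), the lowest in Csf2rb, and stood at 2990 and 3300 CPM in replicates 1 and 2. Csf2rb2 was also highest in replicate 2. It was lowest in replicate 1, where the eosinophil sum was 8070 CPM, and had 107 CPM in replicate 3, where that sum was 3270 CPM. The part of these marker genes' cell types in the rise of the beta chains was not tested.

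Another 4 receptors did not overlap between AML1-ETO and control GMP but were not called, which makes 6 of 9 without overlap (26.7% of genes). The ligand-binding chains of the beta chains lay higher in AML1-ETO GMP: Csf2ra at 361, 263 and 232 CPM, against 213, 204, 168 and 205 CPM in control GMP (log2 fold change 0.55 ± 0.16, edgeR adjusted p = 0.0743), and Il3ra at 104, 120 and 90.0 CPM, against 76.6, 80.7, 80.3 and 70.4 CPM (0.46 ± 0.12, adjusted p = 0.0546). Both chains of the interleukin 6 receptor lay lower. Il6ra had 113, 52.0 and 67.5 CPM in AML1-ETO GMP, against 122, 141, 132 and 128 CPM in control GMP (−0.74 ± 0.24, edgeR adjusted p = 0.0996). Il6st had 63.5, 30.4 and 53.5 CPM in AML1-ETO GMP, against 77.6, 86.4, 97.3 and 75.8 CPM in control GMP (−0.76 ± 0.24, edgeR adjusted p = 0.0953). DESeq2 called all 4, with adjusted p from 0.0047 for Il3ra to 0.0402 for Il6st, and also Epor (adjusted p = 0.00214).

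Csf3r and Csf1r overlapped between the genotypes. Csf3r had 286, 544 and 239 CPM in AML1-ETO GMP, against 243, 248, 257 and 315 CPM in control GMP (log2 fold change 0.44 ± 0.26, edgeR adjusted p = 0.364). Csf1r had 346, 131 and 98.1 CPM in AML1-ETO GMP, against 178, 219, 220 and 187 CPM in control GMP (−0.05 ± 0.38, edgeR adjusted p = 0.957). The AML1-ETO libraries thus fell on both sides of the controls for Csf1r. Replicate 1, the highest, also had the highest sums of 15 monocyte, macrophage and dendritic cell markers (2010 CPM, against 727 and 902 CPM in the other AML1-ETO GMP libraries and 1180 to 1480 CPM in control GMP) and of 11 neutrophil markers (3660 CPM, against 606 and 695 CPM, and 63.5 to 84.7 CPM in control GMP). Without it Csf1r was called lower (log2 fold change −0.80 ± 0.16, edgeR adjusted p = 0.0195), as were Il6ra (−1.12 ± 0.14, adjusted p = 0.00626) and Il6st (−1.0 ± 0.24, adjusted p = 0.033). The part of those cell types was not tested.

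Epor was low in GMP and uneven under AML1-ETO: 5.26, 2.29 and 40.2 CPM in AML1-ETO GMP, against 1.23, 2.32, 1.69 and 1.57 CPM in control GMP. The groups overlapped, and the log2 fold change of 3.24 ± 0.91 did not pass the test (edgeR adjusted p = 0.0649). Replicate 3, at 40.2 CPM, also had Gata1 at 105 CPM and Klf1 at 27.4 CPM, against 10.9 to 13.7 CPM and 0.458 to 3.16 CPM in the other 2 AML1-ETO GMP libraries and 6.34 to 8.40 CPM and 3.08 to 3.43 CPM in control GMP. Its erythroid sum was 2000 CPM. Its sum of 8 megakaryocyte markers was 2110 CPM, against 245 and 180 CPM in replicates 1 and 2 and 87.8 to 119 CPM in control GMP. The part of these cell types in the level of Epor was not tested. Replicate 1 had the highest erythroid sum, 5390 CPM, mostly globin (Hba-a1 and Hbb-bs at 2130 CPM each), with Epor at 5.26 CPM. Without replicate 3 the log2 fold change of Epor was 1.15 ± 0.55 (edgeR adjusted p = 0.219), without replicate 1 it was 3.65 ± 0.89 (adjusted p = 0.0343) and without replicate 2 it was 3.74 ± 0.72 (adjusted p = 0.0132).

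**Figure D4:**
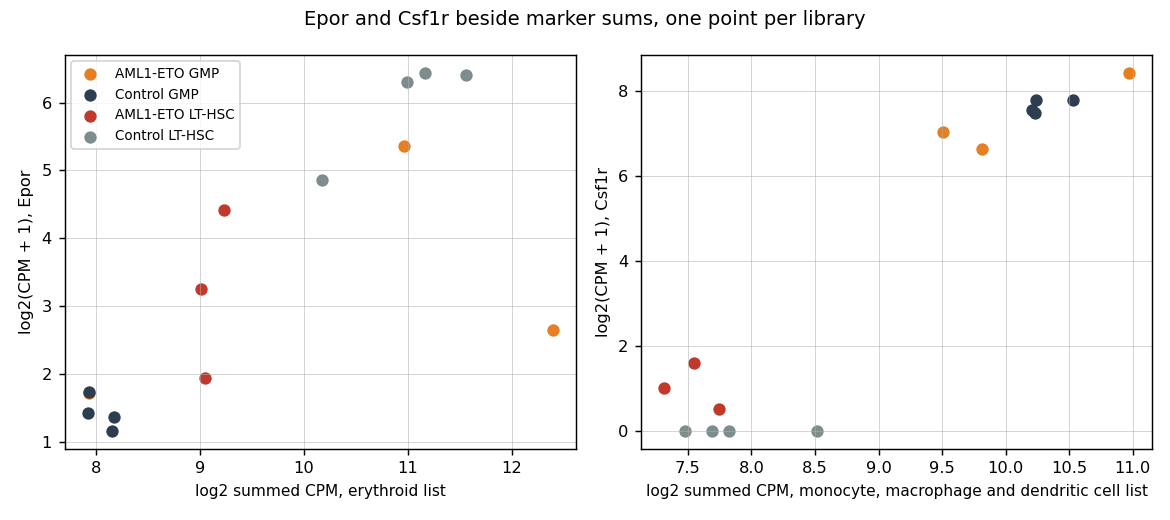
Epor against the summed level of 15 erythroid markers (left) and Csf1r against that of 15 monocyte, macrophage and dendritic cell markers (right), both axes on a log2 scale of CPM, 1 point per library, coloured by group. Control LT-HSC replicate 1 is lowest of its group on both axes of the left plot, and AML1-ETO GMP replicate 1 is highest on both axes of the right plot, at 2010 CPM of markers and 346 CPM of Csf1r.

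The AML1-ETO effect itself was tested for a difference between the cell types, as the effect in GMP minus that in LT-HSC. It differed for 4 of the 9 receptors, 3 lower and 1 higher, against 2.91% and 3.43% of 16116 genes. The effect on Csf3r was smaller in GMP by 2.64 ± 0.58 on the log2 scale (edgeR adjusted p = 0.0157) and that on Il3ra smaller by 1.45 ± 0.32 (adjusted p = 0.0152). Without AML1-ETO LT-HSC replicate 2 the call of Il3ra was lost (adjusted p = 0.0552). The effect on Epor was higher in GMP, with a log2 difference of 5.92 ± 1.21 (edgeR adjusted p = 0.0112), and stayed called whichever library was left out, at 3.85 without AML1-ETO GMP replicate 3. For Csf1r the difference was also called (adjusted p = 0.0142), but it rests on the 0 counts of control LT-HSC, so its fitted size depends on the prior count. For the beta chains the difference did not pass the test: −2.17 ± 0.81 for Csf2rb (edgeR adjusted p = 0.135) and −1.34 ± 0.40 for Csf2rb2 (adjusted p = 0.0657). Without control LT-HSC replicate 3 that of Csf2rb passed (−1.80 ± 0.42, adjusted p = 0.0183), as did that of Csf2ra (0.96 ± 0.23, adjusted p = 0.0213). Without control LT-HSC replicate 1 those of Csf2rb2 (−1.62 ± 0.35, edgeR adjusted p = 0.0128) and Il6st (−1.26 ± 0.35, adjusted p = 0.0381) passed. That of Csf2rb2 also passed without AML1-ETO GMP replicate 2 (−1.55 ± 0.43, edgeR adjusted p = 0.0432) and with DESeq2 (adjusted p = 0.0386).

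Set beside control GMP, without a test, the receptor levels of AML1-ETO LT-HSC fall into separate classes. Csf2rb at 293 to 354 CPM, Csf2rb2 at 118 to 163 CPM and Csf3r at 422 to 526 CPM in AML1-ETO LT-HSC lay above the 165 to 180, 20.1 to 22.4 and 243 to 315 CPM of control GMP. Il3ra at 75.5 to 130 CPM overlapped the 70.4 to 80.7 CPM of control GMP. Csf2ra at 46.7 to 58.2 CPM, Il6ra at 13.02 to 16.7 CPM and Csf1r at 0.428 to 2.03 CPM lay below the 168 to 213, 122 to 141 and 178 to 220 CPM of control GMP. Il6st, at 44.5 to 50.1 CPM in AML1-ETO LT-HSC, lay below the 75.8 to 97.3 CPM of control GMP, and Epor, at 2.84 to 20.4 CPM, above its 1.23 to 2.32 CPM.

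The order of the receptors within a group, on the scale of CPM per kb of exon, is given as a description. In AML1-ETO LT-HSC Csf3r stood first at 128.7 ± 15.0 CPM per kb (SD, n = 3), apart from Csf2rb at 45.9 ± 4.87, Il3ra at 34.9 ± 9.18 and Csf2rb2 at 29.0 ± 4.89 CPM per kb, whose neighbours in the order overlap. Csf2ra followed at 18.1 ± 2.03, and Epor, Il6st, Il6ra and Csf1r at 5.32, 4.18, 1.75 and 0.20 CPM per kb. In control LT-HSC Epor stood first at 34.7 ± 13.9 CPM per kb (SD, n = 4), before Csf2ra at 21.2 ± 6.07, Csf3r at 15.4 ± 8.90 and Il3ra at 9.38 ± 2.55 CPM per kb. Csf2rb, Il6st, Csf2rb2 and Il6ra followed at 3.98, 3.67, 2.36 and 1.42 CPM per kb. Of these 8 genes every neighbouring pair overlapped. In AML1-ETO GMP the order ran from Csf2ra at 99.5 ± 23.5 and Csf3r at 98.8 ± 45.5 CPM per kb (SD, n = 3) through Csf2rb, Il3ra, Csf1r and Csf2rb2 at 60.5, 35.3, 33.2 and 21.6 to Il6ra, Epor and Il6st at 8.95, 8.0 and 4.43 CPM per kb. Only Csf2rb2 and Il6ra, among neighbours, did not overlap there. In control GMP it ran from Csf3r at 73.7 ± 9.19 and Csf2ra at 68.7 ± 6.99 CPM per kb (SD, n = 4), which overlapped, through Csf1r, Il3ra, Csf2rb and Il6ra at 34.8, 25.96, 23.7 and 15.1 to Il6st, Csf2rb2 and Epor at 7.59, 4.46 and 0.856 CPM per kb. Csf2rb2 was thus last but for Epor in control GMP, and ahead of 5 of the others in AML1-ETO LT-HSC.

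The RNA balance of the GM-CSF receptor chains moved with these levels, and protein was not measured. The ratio of Csf2rb to Csf2ra, both in CPM per kb, was 2.74, 3.0 and 1.99 in AML1-ETO LT-HSC, against 0.289, 0.157, 0.0312 and 0.194 in control LT-HSC. In every AML1-ETO LT-HSC library the RNA of the beta chain stood above that of the binding chain on this scale, and in every control LT-HSC library below it. The ratio of Csf2rb to Il3ra was 1.37, 1.11 and 1.58 in AML1-ETO LT-HSC, against 0.931, 0.313, 0.0551 and 0.428 in control LT-HSC. In AML1-ETO GMP the ratio of Csf2rb to Csf2ra was 0.349, 1.07 and 0.484, against 0.319, 0.318, 0.408 and 0.347 in control GMP, with overlap. The ratio of Csf2rb to Csf2rb2 was 2.95, 3.58 and 1.74 in AML1-ETO GMP, below the 5.00, 5.01, 5.63 and 5.70 of control GMP. Every ratio with Csf2rb would move with any misplaced read between the 2 similar genes. The ratio of Il6st to Il6ra separated the cell types, at 0.439 to 0.617 in AML1-ETO GMP and 0.46 to 0.573 in control GMP, against 2.07 to 2.67 in AML1-ETO LT-HSC and 1.67 to 4.86 in control LT-HSC.

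**Figure D5:**
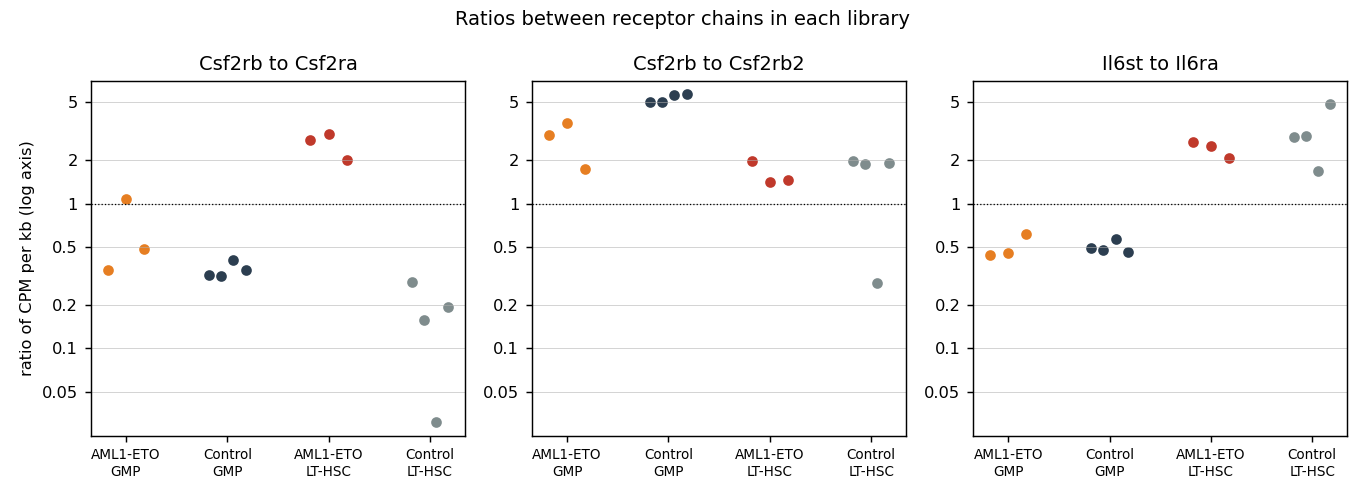
Ratios of Csf2rb to Csf2ra, Csf2rb to Csf2rb2 and Il6st to Il6ra in every library, from levels in CPM per kb of exon, on a log axis, by group. The dotted line marks equal levels. The 3 AML1-ETO LT-HSC libraries lie at 1.99 to 3.0 for Csf2rb to Csf2ra, above the 4 control LT-HSC libraries at 0.0312 to 0.289.

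Around the receptors, the other genes of the pathway were counted in lists chosen by known role. The background for every list is the 7.59% of genes called higher and 4.69% called lower in AML1-ETO LT-HSC, at a median log2 fold change of 0.03, and the 5.47% called higher and 3.96% called lower in AML1-ETO GMP, at a median of −0.03. Of 25 signal transducers, 15 were higher and none lower in AML1-ETO LT-HSC, with a median log2 fold change of 1.0. Among them were the Src family kinase gene Lyn (140.7 ± 5.27 CPM in AML1-ETO LT-HSC and 45.3 ± 4.28 CPM in control LT-HSC, SD; log2 fold change 1.73 ± 0.17, edgeR adjusted p = 0.00132) and the tyrosine kinase gene Fes (238.9 ± 24.3 CPM and 76.9 ± 19.3 CPM; 1.73 ± 0.23, adjusted p = 0.0036). Stat5a, a main STAT of the GM-CSF, interleukin 3 and erythropoietin receptors, was also called, at 492.5 ± 40.3 CPM in AML1-ETO LT-HSC and 172.9 ± 26.9 CPM in control LT-HSC. In GMP 7 of the 25 were higher in AML1-ETO and none lower, with a median of 0.35, and they included the Src family kinase gene Fgr (log2 fold change 6.01 ± 0.88, edgeR adjusted p = 0.0113). Fgr was near the floor in control GMP, at a mean of 0.666 CPM (48 counts in all), and spanned 14.9 to 80.2 CPM in AML1-ETO GMP. The effect was smaller in GMP than in LT-HSC for Fes (difference −1.57 ± 0.25, edgeR adjusted p = 0.00321), Stat5a (−1.11 ± 0.20, adjusted p = 0.00582) and Lyn.

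Genes that these receptors are known to induce were counted next. Of 23 targets of cytokine signalling, 13 were higher and 1, Myc, was lower in AML1-ETO GMP (5.47% and 3.96% of all genes), with a median log2 fold change of 1.17. Socs3, a feedback inhibitor of gp130 and G-CSF receptor signals, stood at 50.8 ± 41.3 CPM in AML1-ETO GMP and 1.67 ± 0.69 CPM in control GMP (SD; log2 fold change 4.93 ± 0.59, edgeR adjusted p = 0.00682). Cish, a feedback inhibitor induced through STAT5, stood at 26.2 ± 17.1 CPM and 3.03 ± 1.07 CPM (log2 fold change 3.13 ± 0.48, edgeR adjusted p = 0.0126). In LT-HSC 5 of the 23 were higher in AML1-ETO and 3 lower (7.59% and 4.69% of all genes), with a median of 0.98. The 3 lower ones were Ccnd1 (−4.35 ± 0.85, edgeR adjusted p = 0.0153) and Bcl2 (−3.07 ± 0.57, adjusted p = 0.0126), of the cell cycle and of survival, and Ccnd2, a further cyclin. The kinase gene Pim1 rose in both cell types, and less in GMP (difference −1.29 ± 0.33, edgeR adjusted p = 0.0313). Socs3 and Cish were not called between the genotypes in LT-HSC. Socs3 stood at 135.9 ± 39.47 CPM in AML1-ETO LT-HSC and 90.05 ± 65.55 CPM in control LT-HSC (SD), and Cish at 66.08 ± 0.63 CPM and 35.73 ± 26.46 CPM. The 13 called higher in GMP also held Fos, Junb, Egr1, Mcl1, Ier3 and Id1. What induced the genes of this list was not tested.

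Of the 19 negative regulators, 3 were called higher and 1 was called lower in AML1-ETO LT-HSC (median 0.57): the phosphatase genes Inpp5d (1.34 ± 0.17, edgeR adjusted p = 0.00295) and Ptpn2 (1.31 ± 0.20, adjusted p = 0.00603) and the ubiquitin ligase gene Cblb rose, and the adaptor gene Dok2 fell (−3.15 ± 0.60, adjusted p = 0.0142). In GMP 3 rose and none fell (median 0.51), Socs3, Cish and Ptpn2. Of the 15 ligands only 6 had enough counts to be tested in either cell type, and 2 were higher in AML1-ETO in both, Osm and Il6. Il6 was near the floor in LT-HSC, at a mean of 1.68 CPM (76 counts in all) in AML1-ETO LT-HSC and no count in control LT-HSC. In GMP its groups overlapped, at 4.19 to 53.2 CPM in AML1-ETO GMP and 1.28 to 6.19 CPM in control GMP. Osm, which encodes oncostatin M, a cytokine that signals through gp130 and is itself a STAT5 target, stood at 444 ± 106 CPM in AML1-ETO LT-HSC and 16.0 ± 5.35 CPM in control LT-HSC (4.90 ± 0.33, edgeR adjusted p = 0.000502). It stood at 205 ± 104 CPM in AML1-ETO GMP and 84.2 ± 21.9 CPM in control GMP (1.30 ± 0.33, edgeR adjusted p = 0.0463). Osmr, the oncostatin M receptor gene, had no count in any of the 4 groups.

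Of 32 other blood cytokine receptors, 30 were tested in LT-HSC, where 10 were higher and 3 lower in AML1-ETO (median −0.10), and 26 in GMP, where 4 were higher and 1, Kit, was lower (median 0.41). Il1rl1, the interleukin 33 receptor of mast cells, rose most in LT-HSC (5.17 ± 0.55, edgeR adjusted p = 0.00174). Il7r and Il18r1, receptors of lymphoid cells, fell there (−4.04 ± 0.68, adjusted p = 0.00887, and −3.22 ± 0.65, adjusted p = 0.0166). Il2rb was the third called lower in LT-HSC, while Il2rg and Crlf2 were among those called higher. Il2rg stood at 263.5 ± 50.97 CPM in AML1-ETO LT-HSC and 61.72 ± 30.17 CPM in control LT-HSC (SD), and Crlf2 at 208.9 ± 32.72 CPM and 117.1 ± 18.04 CPM. In GMP Il18r1 was instead called higher in AML1-ETO (4.07 ± 0.785, edgeR adjusted p = 0.0228), at a mean of 3.87 CPM, against 0.225 CPM in control GMP. Its difference of the effects was called (7.37 ± 0.98, edgeR adjusted p = 0.00114). Of 14 transcription factors that act on receptor genes, 6 were called higher and 1 was called lower in AML1-ETO LT-HSC (median 0.60). The 6 include Runx1, itself part of the fusion, and Cebpe. The latter had a mean of 1.88 CPM (89 counts in all) in AML1-ETO LT-HSC and no count in control LT-HSC. Gfi1, a repressor needed for granulocytes, rose by 2.90 ± 0.69 (edgeR adjusted p = 0.0315) and Fli1 by 1.26 ± 0.31 (adjusted p = 0.0336), while Klf1 was the gene that fell. In GMP 3 rose and none fell (median 0.70), Fli1, Cebpb and Ets1. Spi1, which encodes PU.1, and Cebpa were called in neither comparison of the genotypes, and both were higher in control GMP than in control LT-HSC.

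Over the 14 libraries, the genes whose log2 CPM ran most like that of a receptor were sought among the 13615 genes averaging 20 counts or more. As the libraries fall into 4 groups, these Pearson correlations mainly describe group means. Csf3r ran most like Cd63 (r = 0.98), Clec4e (0.971) and Dok3 (0.97), and Csf2rb like Tmed4 (0.964), Clec4e (0.962) and Gfi1 (0.955). Clec4e, a lectin receptor gene of myeloid cells, was the gene in both sets. Csf2rb2 ran like Trav14n-3 (0.958), Arhgap1 (0.951) and Ptpn2 (0.949), and Il3ra like Gm15347 (0.973), Sec24d (0.967) and Cyp11a1 (0.957). Csf1r was matched by Gm21188 (0.993), Agps (0.992) and Olr1 (0.986), Csf2ra by Dstn (0.976), Ear2 (0.967) and Glrx (0.967), and Il6ra by Mapkapk3 (0.963), Idh1 (0.962) and Ash2l (0.958). Ear2 has similar copies that may share its reads. Epor ran like Acss2 (0.976), Ces2g (0.968) and Cttn (0.962). Il6st had the weakest matches, B230118H07Rik (0.91), Gm5422 (0.906) and AI839979 (0.905).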

How the data were processed

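The authors deposited raw counts per gene, whole numbers for 54532 rows in 14 columns. Per the submitters' processing notes, HISAT2 2.0.5, featureCounts 1.5.0-p3 and mm10 were used. Per the labels' protocols, libraries were made with low-input and stranded SMART kits. How strand was set in counting, and which annotation release was used, is not given in the sources used here. Reads of antisense or near-identical genes therefore cannot be told apart. 105 rows repeat an earlier symbol and stayed in.

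Counts were filtered with filterByExpr, scaled by TMM and tested with edgeR 4.0.16 (quasi-likelihood F test, two-sided, Benjamini-Hochberg over all genes tested, R 4.3.3). AML1-ETO was compared with control on the 7 libraries of each cell type. The other comparisons used 1 fit of 14 libraries. The alternatives included DESeq2 1.42.0. The fits were also run on simulated data. Their spread between libraries was smaller than that of the real libraries, so that run does not bear on the calls given here. CPM levels use TMM over 14 libraries. Per-length levels divide by the union of exons in GENCODE M21 (mm10). A group at 0 counts was set against a floor of 3 counts over the group.

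The receptors, gene lists and tests were chosen with earlier results of these data known. Named genes were the 9 receptors, Runx1t1, up to 3 called genes per list and comparison with the largest change (averaging 20 counts or more, groups not overlapping), and the 3 genes most like each receptor. Where they stand outside that rule for a comparison, Il6, Stat5a, Pim1, Lyn, Cblb, Ccnd2, Kit, Myc, Spi1, Cebpa, Ets1, Runx1, Cebpe and Osmr were named after their values were seen. So were, outside that rule, Socs3, Cish, Fos, Junb, Egr1, Mcl1, Ier3, Id1, Il2rb, Il2rg and Crlf2. So were single marker genes of cell types. Some genes that the rule names are not reported here.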

Additional observations from a re-analysis of the deposited data

Results flagged for a closer look

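For 2 of the 18 receptor and control group combinations, 1 library of 4 lay apart from the rest of its group, where chance gives about 1 in 20. Csf2ra stood at 34.8 CPM in control LT-HSC replicate 3, against 68.5 to 70.4 CPM in the other control LT-HSC libraries. Epor stood at 28.0 CPM in control LT-HSC replicate 1, against 77.8 to 86.2 CPM in the others.

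For 4 receptors the AML1-ETO effect differed between the cell types by the test of the difference (edgeR, GMP minus LT-HSC, log2 scale). These were Csf3r at −2.64 (adjusted p = 0.0157), Il3ra at −1.45 (adjusted p = 0.0152), Epor at 5.92 (adjusted p = 0.0112) and Csf1r at −7.30 (adjusted p = 0.0142), of which the last rests on the absence of counts in control LT-HSC.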

How the results depend on the processing

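Of 709 recomputed fold changes of single receptors, 651 kept their direction and their side of the threshold, 21 lost a call, 21 gained one and 16 changed sign. The counts for LT-HSC, for the difference of the effects and for the cell types within each genotype stayed within 1.5 times under every alternative that kept all libraries. With Csf2rb and Csf2rb2 as a sum, 3 of 7 tested receptors were called higher and 1 lower in LT-HSC (1106 and 684 of 14588 genes). Leaving out 1 library gave 3 to 5 receptors called in LT-HSC. In GMP, against 2 receptors called, DESeq2 gave 7, the fit of all 14 libraries 1, Csf2rb and Csf2rb2 as a sum 1, and leaving out 1 library 1 to 6. The causes were not tested, other than that the sum holds 1 gene fewer.

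The 16 sign changes concerned fold changes that had not passed the test. Il3ra between AML1-ETO GMP and AML1-ETO LT-HSC was −0.111 with DESeq2 size factors, −0.114 with upper-quartile factors, −0.11 with DESeq2, −0.00881 with at least 10 counts in every sample of a group, −0.0246 in the fit of these 2 groups and −0.159 to 0.207 without 1 library. Il6st there was −0.0349 with DESeq2 size factors, −0.0435 with upper-quartile factors, −0.0349 with DESeq2 and −0.134 to 0.346 without 1 library. Without 1 library, Csf2rb there ranged from −0.132 to 0.644 and Epor from −1.48 to 1.49, and between the genotypes in GMP Csf3r ranged from −0.00728 to 0.651 and Csf1r from −0.80 to 0.256.

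Same-numbered libraries did not deviate together in every pair (r from −0.0765 to 0.161), so the replicate block was an alternative only. With it, 4 receptors were called in LT-HSC, where Epor lost its call (adjusted p = 0.109), and 1 in GMP, where Csf2rb did (adjusted p = 0.146), and 525 genes in all in LT-HSC (1791 without it) and 112 in GMP (1319 without it). For the difference of the effects it called 568 genes (1021 without it). In AML1-ETO mice all 6 libraries correlated best with their own number across the cell types (r from 0.091 to 0.161, against −0.092 to −0.021 for other numbers). The comparison of those cell types was nevertheless made without pairing. With the block it called 2835 genes (3505 without it) and 3 receptors either way.

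Over all genes, DESeq2 called 2811 in LT-HSC, 2309 in GMP and 1781 for the difference. The fit of 14 libraries called 3166 in LT-HSC and 458 in GMP, and no count filter 816 in GMP. Leaving out 1 library gave as few as 334 in LT-HSC (without AML1-ETO replicate 2), 131 in GMP (without control replicate 3) and 471 for the difference (without AML1-ETO LT-HSC replicate 2), and up to 3514 in GMP (without AML1-ETO replicate 2). Between the cell types in AML1-ETO mice it gave 2092 without AML1-ETO LT-HSC replicate 2, against 3505.

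Between the genotypes in LT-HSC the share of higher calls was 61.8% as reported, 51.7% with upper-quartile factors (median of all genes moved by −0.135) and 47.2% with DESeq2. Between the control cell types it was 56.9% as reported, 44.9% with DESeq2 size factors (median moved by −0.148), 47.4% with upper-quartile factors and 40.6% with DESeq2. In AML1-ETO mice between the cell types it was 57.9% as reported, 49.7% with DESeq2 size factors, 48.5% with upper-quartile factors (median moved by −0.105) and 49.0% with DESeq2. Levels of a few CPM, such as Csf1r in LT-HSC, limit what depth can show.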
